A study of Mus musculus with 12 samples.

Results

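Ly6a, Ly6c1, Ly6c2, Ly6e and Ly6d encode small surface antigens of the mouse Ly6 family, and Ly6a encodes Sca1, an antigen by which all 4 populations of the study were sorted. They were taken by name from a list, and all 5 were found among the 17362 genes of the deposited table and passed the filter on low values, which left 17086 genes to test. RNA was sequenced from endothelial cells of untreated B6 mice, sorted out of bone marrow from crushed tibia, femur and iliac bone, in 12 libraries, 3 for each of 4 populations. The gate for CD200-high capillaries was CD200Hi, Sca1+, CD31+, EMCN- and CD45-. That for type H vessels was Sca1+, CD31+, CD45- and EMCN+. For other arterial cells it was CD31+, Sca1+, CD45- and CD200-. The last population is labelled sinusoidal and gated CD31+, Sca1+ and CD45-, a gate that as written holds the other 3. The 3 replicates of each population were prepared from 6 mice, numbered as mice, and neither age nor sex is given. Listed reads came to between 7.33 and 21.6 M (M, 1e6 reads) per library.

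Ly6 proteins fold into a compact domain held by disulphide bonds and are tethered to the outer leaf of the plasma membrane by a glycosylphosphatidylinositol (GPI) anchor. Sca1 is used to sort blood stem cells and arteriolar endothelium in mouse marrow. The Ly6C antigens encoded by Ly6c1 and Ly6c2 mark monocytes and also endothelium. Ly6e is widely expressed and induced by interferon, and Ly6d marks early cells of the B lineage. In mouse the genes lie together on chromosome 15.

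The coding sequences of Ly6c1 and Ly6c2 are shown because the assignment of reads to each gene rests on few bases, and that of Ly6a because its level followed Ly6c1 but not Ly6c2, although its coding bases are about as close to both. The first 300 coding bases of each principal transcript in GENCODE M21 on GRCm38 are given, all from the minus strand of chromosome 15, and they hold 7 of the 9 differences between Ly6c1 and Ly6c2. Capitals in Ly6c1 and Ly6c2 mark bases at which these genes differ from each other, and capitals in Ly6a mark bases that differ from, or have no partner in, Ly6c1.
Ly6a: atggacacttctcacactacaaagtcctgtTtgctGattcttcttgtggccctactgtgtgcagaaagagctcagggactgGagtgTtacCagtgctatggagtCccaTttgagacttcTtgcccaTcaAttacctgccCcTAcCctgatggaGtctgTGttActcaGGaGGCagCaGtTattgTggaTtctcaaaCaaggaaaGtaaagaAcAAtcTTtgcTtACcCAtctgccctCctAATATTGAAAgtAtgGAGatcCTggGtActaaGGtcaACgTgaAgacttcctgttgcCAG
Ly6c1: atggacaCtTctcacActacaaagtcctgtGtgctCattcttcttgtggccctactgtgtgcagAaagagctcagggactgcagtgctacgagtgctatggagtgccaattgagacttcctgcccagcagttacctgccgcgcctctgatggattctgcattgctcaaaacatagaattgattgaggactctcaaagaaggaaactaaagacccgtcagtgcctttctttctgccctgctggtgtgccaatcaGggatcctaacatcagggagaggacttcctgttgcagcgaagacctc
Ly6c2: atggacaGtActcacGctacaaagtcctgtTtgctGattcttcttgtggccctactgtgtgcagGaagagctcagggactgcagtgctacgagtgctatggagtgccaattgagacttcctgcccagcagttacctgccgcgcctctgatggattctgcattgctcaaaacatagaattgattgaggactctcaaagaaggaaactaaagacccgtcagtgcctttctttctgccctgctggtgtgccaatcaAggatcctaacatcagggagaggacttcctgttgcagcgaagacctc
Ly6c1 and Ly6c2 were identical at 387 of 396 aligned coding bases (97.7%), with 9 substitutions and a longest identical run of 188 bases. Ly6a was identical to Ly6c1 at 332 of 405 aligned positions (82.0%) and to Ly6c2 at 331 (81.7%). Ly6e and Ly6d shared 48.2% to 51.6% of aligned positions with the other members and with each other. Of the windows as long as a read (150 bases), 39 of 695 in the Ly6c1 transcript (5.61%) and 39 of 673 in the Ly6c2 transcript (5.79%) were identical between these genes, and no window of Ly6a, Ly6e or Ly6d was shared with another annotated gene. How the authors counted reads that fit several places is not given in the sources used here, so the split between Ly6c1 and Ly6c2 is uncertain for such reads.

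The 250 bases before the annotated start of Ly6c1 and Ly6c2 diverge more than the coding parts. They are RefSeq sequences on GRCm38.p6, minus strand, for Ly6c1 at chr15:75048838-75049087 and for Ly6c2 at chr15:75111972-75112221. Capitals mark bases that differ between them, or have no partner, within the aligned stretch.
Ly6c1 promoter: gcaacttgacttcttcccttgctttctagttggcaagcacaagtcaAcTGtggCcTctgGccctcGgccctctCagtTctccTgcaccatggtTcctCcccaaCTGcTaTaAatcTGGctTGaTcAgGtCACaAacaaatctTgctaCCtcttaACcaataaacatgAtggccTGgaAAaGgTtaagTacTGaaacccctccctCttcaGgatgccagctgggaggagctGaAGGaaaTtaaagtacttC
Ly6c2 promoter: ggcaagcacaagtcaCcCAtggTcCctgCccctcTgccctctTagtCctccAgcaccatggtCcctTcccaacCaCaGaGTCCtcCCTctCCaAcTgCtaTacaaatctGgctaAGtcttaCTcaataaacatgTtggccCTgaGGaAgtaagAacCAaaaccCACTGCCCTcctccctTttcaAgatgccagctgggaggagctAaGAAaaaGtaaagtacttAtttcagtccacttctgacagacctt
Of 232 aligned positions, 166 (71.6%) were identical, with a longest identical run of 20 bases. Neither stretch held the interferon-stimulated response element (a pair of GAAA with 2 bases between) or the gamma-activated site TTCNNNGAA on either strand, letters that occur in 2.98% and 7.02% of the 32851 promoters of the same length.

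Across the populations the 5 members fell into 4 patterns of CPM. Ly6a and Ly6c1 were lowest in the sinusoidal-labelled libraries, Ly6c2 was highest in arterial libraries, Ly6e was highest in type H libraries, and Ly6d was highest in the sinusoidal-labelled libraries and next in arterial. In the test over all genes (limma, Benjamini-Hochberg adjustment, threshold 0.05), CD200-high had 2 members called higher and 1 lower than in type H, where 6.66% of all genes tested were called higher and 6.35% lower (13% in either direction). Against arterial it had 2 members lower (8.15% of genes lower, 4.75% higher, 12.9% in all), and against the sinusoidal-labelled libraries 2 higher and 1 lower (14.1% and 14.6%, 28.7% in all). Type H had 1 higher and 3 lower against arterial (7.96% and 12.7% of genes, 20.7% in all), and 3 higher and 1 lower against the sinusoidal-labelled libraries (13.9% and 14.6%, 28.6% in all). Arterial had 3 higher and 1 lower against those libraries (8.09% and 2.14%, 10.2% in all).

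Libraries of the compared populations did not overlap for 4 of 5 members in CD200-high against type H, as for 30.9% of all genes. The count was 3 of 5 in CD200-high against arterial (32.2% of all genes) and 3 of 5 in CD200-high against the sinusoidal-labelled libraries (46.5%). It was 5 of 5 in type H against arterial (40.0%), 4 of 5 in type H against the sinusoidal-labelled libraries (46.8%) and 5 of 5 in arterial against them (39.5%). These comparisons share libraries. P-values measure the spread between libraries numbered as mice.

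**Figure D1:**
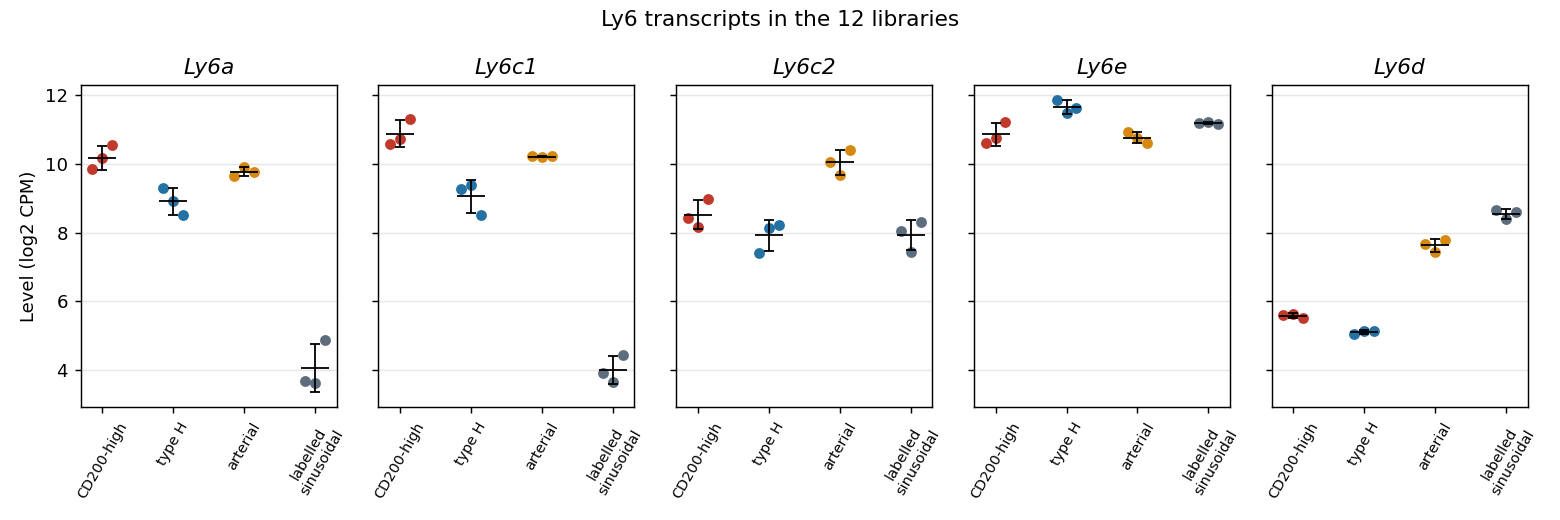
Level of each Ly6 transcript (log2 CPM, counts per 1e6 reads) in the 12 libraries, by sorted population; points are libraries, bars the mean and SD of 3 libraries. Ly6a and Ly6c1 share a shape that neither Ly6c2, Ly6e nor Ly6d has.

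Endothelial transcripts were lowest in the sinusoidal-labelled libraries, and this stands beside every comparison with them. The summed level of 10 pan-endothelial genes ranged from 2376 to 4442 CPM in CD200-high, from 6273 to 6813 CPM in type H, from 1345 to 1699 CPM in arterial, and from 228 to 246 CPM in the sinusoidal-labelled libraries. In these bulk libraries fewer cells of a type and less RNA per cell cannot be told apart. Of the 10 genes, 9 were higher and 1 lower in CD200-high libraries than in the sinusoidal-labelled libraries, 9 were higher and 0 lower in type H, and likewise 9 and 0 in arterial. Of all genes tested, 28.7%, 28.6% and 10.2% were called in these comparisons, in either direction. As an alternative scaling, each library was set to the same median of these genes, which adds a constant to all differences of a comparison. The constant was 0.95 for CD200-high minus type H, -1.001 for CD200-high minus arterial and -3.99 for CD200-high minus sinusoidal-labelled. It was -1.95 for type H minus arterial, -4.94 for type H minus sinusoidal-labelled and -2.99 for arterial minus sinusoidal-labelled.

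With that scaling the balance of members called higher and lower moved to 4 and 0 in CD200-high against type H, 0 and 3 against arterial and 2 and 3 against the sinusoidal-labelled libraries. It moved to 0 and 5 in type H against arterial, to 0 and 3 in type H against the sinusoidal-labelled libraries, where 3 were higher and 1 lower without it, and to 2 and 3 in arterial against them. Limma then called 3887, 5245 and 13782 of the 17086 genes tested in CD200-high against type H, arterial and sinusoidal-labelled, in either direction. It called 11061 and 15085 in type H against arterial and sinusoidal-labelled, and 11350 in arterial against sinusoidal-labelled. The median over all genes was 0.90, -1.22, -4.22, -2.15, -5.14 and -3.01 in the same order. In each comparison the balance of members leaned to the side of that median.

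The 10 markers of sinusoidal endothelium were not highest in the libraries that carry that name. They summed to 1234 to 1519 CPM in CD200-high, 17562 to 22522 CPM in type H, 908 to 1399 CPM in arterial, but 212 to 310 CPM in the sinusoidal-labelled libraries. The sum of a list of reticular stroma and bone genes was highest in CD200-high, but not every gene of the list. Ly6a and Ly6c1 also had their highest mean CPM there, but neither passed against arterial (adjusted p = 0.449 and 0.132). Both turned with pan-endothelial scaling (-0.59 and -0.33). The stroma and bone sum was 100303 to 150600 CPM for CD200-high, 4718 to 7259 CPM for type H, 17756 to 22028 CPM for arterial and 6262 to 14105 CPM for the sinusoidal-labelled libraries. Of these 10 genes, 6 were higher and 2 lower in CD200-high against type H, 4 higher and 3 lower against arterial, and 7 higher and 1 lower against the sinusoidal-labelled libraries. The bone matrix genes Col1a1 and Bglap were higher in CD200-high against type H by 11.2 ± 0.61 and 11.3 ± 0.67 (log2, adjusted p = 1.12e-06 and 1.77e-06). The genes called lower in CD200-high were Adipoq, Lepr and Cxcl12, of the reticular stroma. Adipoq was lower against type H, arterial and the sinusoidal-labelled libraries (-8.66, -10.89 and -6.79), and Lepr against type H and arterial (-2.84 and -4.76). Cxcl12 was lower against arterial (-2.43) but higher against the sinusoidal-labelled libraries (1.49). The part of this RNA in the Ly6 differences was not tested.

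Ly6a, the transcript of Sca1, was abundant in CD200-high, type H and arterial libraries and far lower in the sinusoidal-labelled ones. It stood at 919, 1152 and 1491 CPM in CD200-high, at 631, 489 and 368 CPM in type H, at 804, 966 and 873 CPM in arterial, and at 12.7, 12.2 and 29.2 CPM in the sinusoidal-labelled libraries. The sinusoidal-labelled libraries all lay below the other 9, although their label gives Sca1+, and they were not at 0, with 228, 302 and 599 reads. Ly6a encodes an antigen of the gate, so its differences and the gate cannot be told apart, and the Sca1+ of this label may not be the gate that was used. Against them Ly6a was higher in CD200-high by 6.13 ± 0.32 (log2 ± SE, 70.2-fold, adjusted p = 2.24e-07) and in arterial by 5.73 ± 0.32 (53.0-fold, adjusted p = 9.35e-07). With pan-endothelial scaling these came to 2.14 and 2.74 (adjusted p = 1.17e-05 and 3.30e-06). Type H was higher by 4.87 ± 0.32 (29.2-fold, adjusted p = 7.97e-07), a direction that turned to -0.07 (adjusted p = 0.813) with pan-endothelial scaling.

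Within the 3 populations rich in Ly6a the differences were smaller than those from the sinusoidal-labelled libraries, without pan-endothelial scaling. CD200-high lay above type H by 1.27 ± 0.32 (2.41-fold, adjusted p = 0.0216), with no overlap between their libraries, and by 2.21 with pan-endothelial scaling. That call was lost without CD200-high replicate 2 (adjusted p = 0.051), CD200-high replicate 3 (adjusted p = 0.0689) or type H replicate 3 (adjusted p = 0.0827), and in limma without the mean-variance trend (adjusted p = 0.0713). CD200-high and arterial libraries overlapped and were not told apart, at 0.41 with a 95% interval of -0.29 to 1.10 (adjusted p = 0.449), and pan-endothelial scaling gave -0.59 (adjusted p = 0.117). Type H lay below arterial by a margin that did not pass, at -0.86 ± 0.32 (adjusted p = 0.078). It passed in several alternatives, for example with only these 2 populations in the fit (adjusted p = 0.0259) with voom weights (adjusted p = 0.00765) and with pan-endothelial scaling (-2.81, adjusted p = 1.15e-05). In order of level, CD200-high and arterial were neighbours that did not differ beyond their spread, then came type H and, far below, the sinusoidal-labelled libraries.

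Divided by the summed pan-endothelial level, Ly6a came to 0.387, 0.366 and 0.336 in CD200-high, to 0.0954, 0.0779 and 0.0540 in type H, to 0.597, 0.568 and 0.630 in arterial, but to 0.0515, 0.0537 and 0.128 in the sinusoidal-labelled libraries. On this ratio of levels arterial libraries were highest, and type H overlapped the sinusoidal-labelled libraries. The part of the endothelial level in the Ly6a differences was not tested otherwise.

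Ly6c1, which encodes a Ly6C antigen of endothelium and monocytes, followed the same order as Ly6a. It stood at 1534, 1716 and 2561 CPM in CD200-high, at 618, 677 and 363 CPM in type H, at 1201, 1172 and 1197 CPM in arterial, and at 15.0, 12.4 and 21.5 CPM in the sinusoidal-labelled libraries. Each library of CD200-high lay above all of the others, and each library labelled sinusoidal lay below them. CD200-high was higher than type H by 1.82 ± 0.27 (3.54-fold, adjusted p = 0.000887) and type H lower than arterial by 1.16 on the log2 scale (difference -1.16 ± 0.27, adjusted p = 0.0101). Against the sinusoidal-labelled libraries Ly6c1 was higher in CD200-high by 6.89 ± 0.27 (119-fold, adjusted p = 2.36e-08) and in arterial by 6.22 ± 0.27 (74.7-fold, adjusted p = 1.47e-07), which came to 2.90 and 3.23 with pan-endothelial scaling. The rise in type H over them, 5.07 ± 0.27 (33.5-fold, adjusted p = 1.54e-07), shrank to 0.13 with pan-endothelial scaling (adjusted p = 0.661). Between CD200-high and arterial the difference of 0.67 ± 0.27 did not pass (adjusted p = 0.132), passed with voom weights (adjusted p = 0.0378), and turned to -0.33 with pan-endothelial scaling.

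Ly6c2, the near-identical neighbour known from monocytes and other myeloid cells, did not share this order. It stood at 344, 285 and 510 CPM in CD200-high, at 170, 280 and 300.1 CPM in type H, at 1074, 817 and 1347 CPM in arterial, and at 265, 175 and 317 CPM in the sinusoidal-labelled libraries. Arterial libraries lay above all of the others, which overlapped among themselves. Ly6c2 was lower in CD200-high libraries than in arterial (difference -1.52 ± 0.30, adjusted p = 0.00689), and lower in type H than in arterial (-2.12 ± 0.30, adjusted p = 0.000516). It was higher in arterial than in the sinusoidal-labelled libraries by 2.11 ± 0.30 (4.32-fold, adjusted p = 0.000859), a direction that turned to -0.88 (adjusted p = 0.0416) with pan-endothelial scaling. The other differences did not pass, but passed with pan-endothelial scaling. CD200-high over type H was 0.60 with a 95% interval of -0.05 to 1.26, and 1.55 with that scaling (adjusted p = 0.00884). CD200-high over the sinusoidal-labelled libraries was 0.59 (-0.07 to 1.24), turning to -3.40 (adjusted p = 1.55e-06). Type H over them was -0.01 (-0.67 to 0.64), and -4.95 with that scaling (adjusted p = 3.49e-08).

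The sums of neutrophil, of monocyte and macrophage, and of erythroid markers were, like Ly6c2, highest in arterial libraries. Of 10 neutrophil markers, 10 were lower in CD200-high libraries than in arterial and 10 lower in type H than in arterial, and 9 were higher in arterial than in the sinusoidal-labelled libraries. Of all genes tested, 12.9%, 20.7% and 10.2% were called in these comparisons, in either direction. Their summed level ranged from 6302 to 11087 CPM in CD200-high, from 4534 to 7900 CPM in type H, from 20651 to 33160 CPM in arterial, and from 5761 to 10203 CPM in the sinusoidal-labelled libraries, and no marker was at 0 in a whole population. Of 10 monocyte and macrophage markers, 3 were lower in CD200-high libraries than in arterial, 5 were lower and 1 higher in type H than in arterial, and 2 were higher in arterial than in the sinusoidal-labelled libraries. The shares called were 30%, 60% and 20%, against 12.9%, 20.7% and 10.2% of all genes. Their sum was 126 to 321 CPM for CD200-high, 422 to 706 CPM for type H, 1017 to 1659 CPM for arterial and 310 to 356 CPM for the sinusoidal-labelled libraries. Of 9 erythroid markers, 7 were lower in CD200-high against arterial, 4 were lower and 1 higher in type H against arterial, and 3 were higher in arterial against the sinusoidal-labelled libraries. Here the shares called were 77.8%, 55.6% and 33.3%, against the same shares of all genes. Erythroid markers summed to 1873 to 3250 CPM for CD200-high, 2913 to 5369 CPM for type H, 8371 to 17188 CPM for arterial and 2511 to 4983 CPM for the sinusoidal-labelled libraries. The part of these cells in the Ly6c2 differences was not tested.

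The balance of Ly6c1 and Ly6c2 within a library does not depend on the scaling. Ly6c1 took 81.7%, 85.8% and 83.4% of the reads of both genes for CD200-high, 78.4%, 70.8% and 54.7% for type H, 52.8%, 58.9% and 47.0% for arterial, and 5.36%, 6.65% and 6.36% for the sinusoidal-labelled libraries. CD200-high had the largest share of Ly6c1 in every library, and the sinusoidal-labelled libraries had the smallest. With the reads of both genes summed, a setting chosen once the values were known, the difference between CD200-high and arterial was 0.00 ± 0.24 (adjusted p = 0.998). The sum was higher in CD200-high libraries than in type H by 1.51 ± 0.24 (adjusted p = 0.00138) and lower in type H than in arterial (-1.51 ± 0.24, adjusted p = 0.00104).

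**Figure D2:**
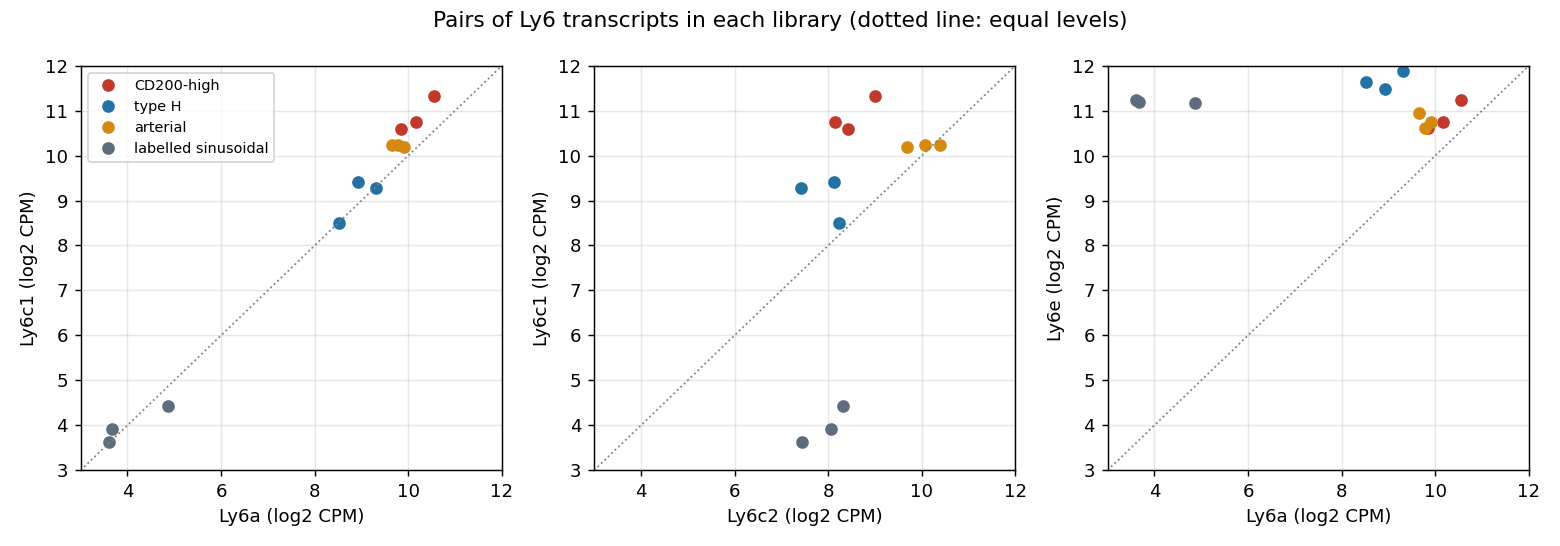
Levels of pairs of Ly6 transcripts in each of the 12 libraries (log2 CPM on both axes; colours are populations, the dotted line marks equal levels). Ly6a and Ly6c1 lie along the line in all populations, and Ly6e stays high where Ly6a is low. Of the reads of Ly6c1 and Ly6c2 together, Ly6c1 took from 85.8% in a CD200-high library to 5.36% in a library labelled sinusoidal.

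Ly6e, whose protein is known in mouse as the receptor of the placental fusion protein syncytin-A, varied least. It stood at 1568, 1723 and 2414 CPM in CD200-high, at 3770, 2874 and 3194 CPM in type H, at 1977, 1727 and 1564 CPM in arterial, and at 2329, 2419 and 2294 CPM in the sinusoidal-labelled libraries. The type H libraries lay above all of the others, and CD200-high and arterial libraries overlapped. Ly6e was lower in CD200-high libraries than in type H (difference -0.80 ± 0.16, adjusted p = 0.0054), turning to 0.14 with pan-endothelial scaling (adjusted p = 0.648). That call was also lost with only the 2 populations in the fit (adjusted p = 0.0559) and without the trend (adjusted p = 0.0746). It was higher in type H than in arterial by 0.90 ± 0.16 (1.86-fold, adjusted p = 0.00194), turning to -1.05 with pan-endothelial scaling (adjusted p = 0.00124).

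The margin of Ly6e in type H over the sinusoidal-labelled libraries was narrow, at 0.47 ± 0.16 (1.39-fold, adjusted p = 0.0409). With the mouse number as a block it did not pass (adjusted p = 0.0552), nor without type H replicate 1 (adjusted p = 0.144) or 3 (adjusted p = 0.0781), arterial replicate 2 (adjusted p = 0.0551) or any 1 of the 3 libraries labelled sinusoidal (adjusted p = 0.0827 to 0.105). Rescaling to equal totals gave 0.30 (adjusted p = 0.212), and pan-endothelial scaling turned it to -4.46. CD200-high against arterial was at 0.10, with a 95% interval of -0.25 to 0.44 (adjusted p = 0.742), and took the other sign without CD200-high replicate 3 and in each of the 3 scaling alternatives. CD200-high and arterial were at -0.33 and -0.43 against the sinusoidal-labelled libraries (adjusted p = 0.139 and 0.122), and both passed with quantile normalization (adjusted p = 0.00303 and 0.0092). With pan-endothelial scaling they came to -4.32 and -3.42 (adjusted p = 1.18e-08 and 1.07e-06).

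Ly6d, an antigen of lymphoid progenitors committed to the B lineage, was highest in the sinusoidal-labelled libraries, where Ly6a was lowest. Both genes stood lower in type H than in CD200-high and arterial libraries. Ly6d stood at 48.2, 49.9 and 45.3 CPM in CD200-high, at 32.7, 34.8 and 35.0 CPM in type H, at 206, 172 and 219 CPM in arterial, and at 408, 336 and 389 CPM in the sinusoidal-labelled libraries. No 2 populations overlapped. Ly6d was lower in CD200-high libraries than in arterial (difference -2.05 ± 0.16, adjusted p = 4.97e-05) and than in the sinusoidal-labelled libraries (-2.98 ± 0.16, adjusted p = 2.89e-07). Type H was lower than arterial (-2.53 ± 0.16, adjusted p = 3.72e-06) and than the sinusoidal-labelled libraries (-3.46 ± 0.16, adjusted p = 6.26e-08). Arterial was lower than the sinusoidal-labelled libraries (-0.93 ± 0.16, adjusted p = 0.00308). CD200-high over type H, at 0.48 ± 0.16, did not pass (adjusted p = 0.0719), and passed with pan-endothelial scaling (1.43, adjusted p = 0.00583). None of these directions turned under any alternative run.

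The sums of B lineage and megakaryocyte markers were, like Ly6d, highest in the sinusoidal-labelled libraries and next in arterial. Of 10 B lineage markers, 9 were lower in CD200-high libraries than in arterial, 10 lower in type H than in arterial, 10 lower in CD200-high and 10 lower in type H than in the sinusoidal-labelled libraries, and 5 lower in arterial than in those libraries. Of all genes tested, 12.9%, 20.7%, 28.7%, 28.6% and 10.2% were called in these comparisons, in either direction. Their sum was 240 to 384 CPM for CD200-high, 128 to 205 CPM for type H, 1838 to 4561 CPM for arterial and 11045 to 12719 CPM for the sinusoidal-labelled libraries. Rag1 had no reads in CD200-high. Of 8 megakaryocyte markers, 5 were lower in CD200-high and 7 lower in type H against arterial, 6 lower in CD200-high and 8 lower in type H against the sinusoidal-labelled libraries, and 1 lower in arterial against them. In the same order the shares called were 62.5%, 87.5%, 75%, 100% and 12.5%, the last near that of all genes (10.2%). Megakaryocyte markers summed to 30.0 to 131 CPM for CD200-high, 36.6 to 74.9 CPM for type H, 470 to 1505 CPM for arterial and 2662 to 3764 CPM for the sinusoidal-labelled libraries. The sorts were gated against CD45, and the part of these cells in the Ly6d differences was not tested.

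**Figure D3:**
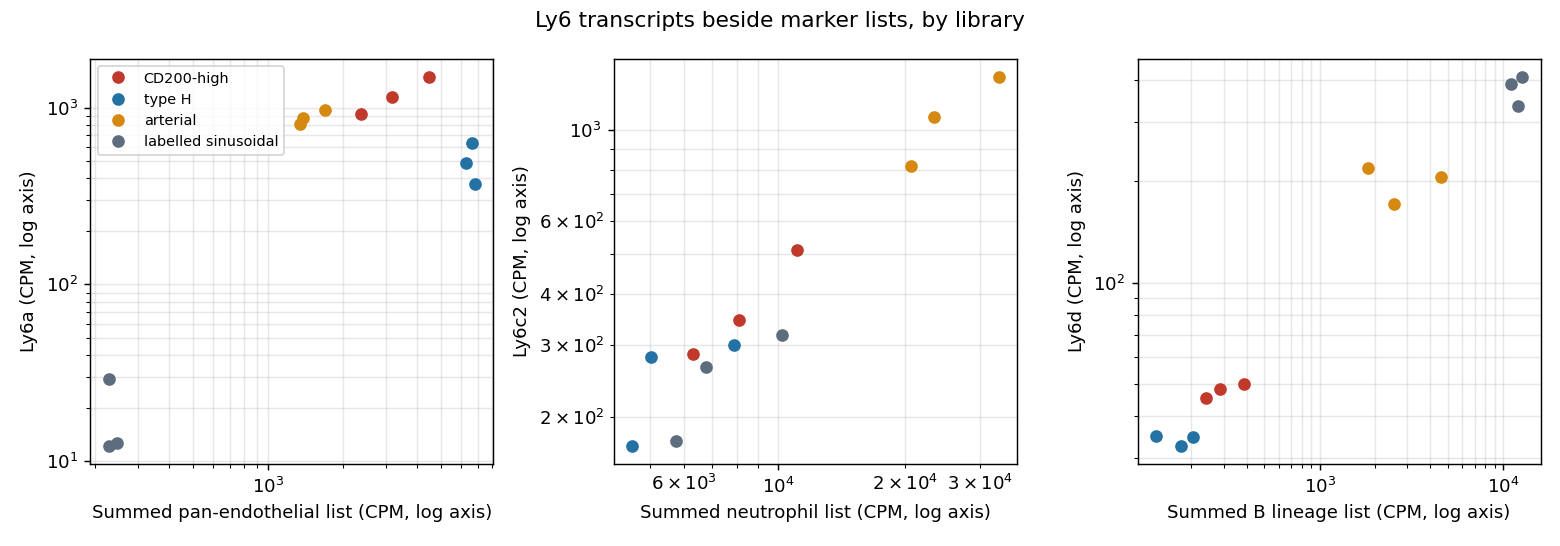
Ly6a beside the summed pan-endothelial list, Ly6c2 beside the summed neutrophil list and Ly6d beside the summed B lineage list in each of the 12 libraries (CPM, log axes; colours are populations). Arterial libraries lead both Ly6c2 and the neutrophil sum, and the sinusoidal-labelled libraries lead both Ly6d and the B lineage sum.

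**Figure D4:**
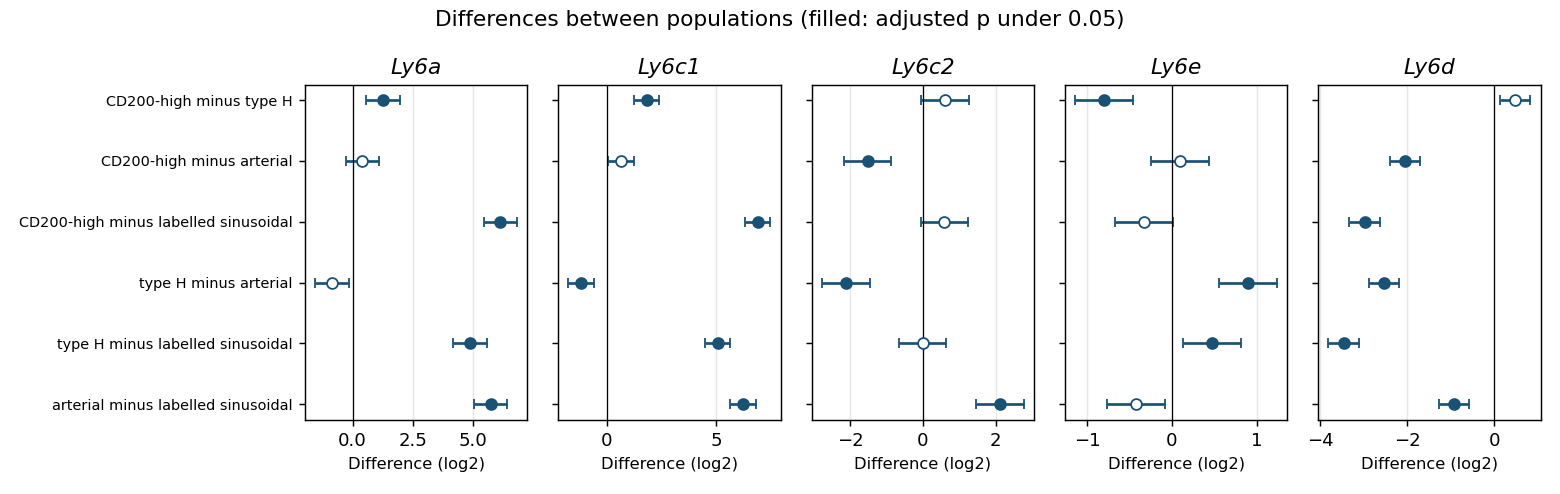
Differences of each Ly6 transcript between populations (log2, first named minus second named) with 95% intervals from limma; filled points have an adjusted p under 0.05. Ly6a and Ly6c1 differ most from the sinusoidal-labelled libraries, which for type H turns to -0.07 and shrinks to 0.13 with pan-endothelial scaling, and Ly6d differs most between type H and those libraries.

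Set per length of the principal GENCODE transcript, since the authors' gene models are not given, the members changed rank between populations. In CD200-high the level per kilobase was 2295 ± 649 CPM for Ly6c1, 1450 ± 351 for Ly6a, 834 ± 198 for Ly6e, 462 ± 142 for Ly6c2 and 64.3 ± 3.10 for Ly6d (SD, n = 3). In type H Ly6e led with 1438 ± 199 CPM per kilobase, followed by Ly6c1 with 655 ± 198 and Ly6a with 605 ± 161, which did not differ beyond their spread, then Ly6c2 with 304 ± 84.9 and Ly6d with 46.0 ± 1.72. Arterial libraries held Ly6c1 at 1410 ± 18.6, Ly6c2 at 1313 ± 323, Ly6a at 1076 ± 99.2, Ly6e at 770 ± 91.2 and Ly6d at 267 ± 33.1 CPM per kilobase. In the sinusoidal-labelled libraries Ly6e led with 1029 ± 28.2 CPM per kilobase, then Ly6d with 507 ± 50.6, Ly6c2 with 307 ± 87.7, Ly6a with 22.0 ± 11.8 and Ly6c1 with 19.4 ± 5.56. The last pair overlapped.

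The genes whose levels followed each member most closely across the libraries were other genes for each pattern. Likeness was Pearson's r of log2 CPM over the 12 libraries, among the 9846 tested genes with a mean of at least 3 log2 CPM, and is given as a description, since libraries of a population share its cells. Ly6a and Ly6c1 were each other's closest gene, with r = 0.995. Next to Ly6a came Ahnak, which encodes a large scaffold protein (0.986), the water channel gene Aqp1 (0.983) and the annexin gene Anxa3 (0.980). Next to Ly6c1 came Anxa3 (0.984), the heat shock protein family gene Hspa12b (0.981) and Slc9a3r2 (0.981). The closest to Ly6c2 were the neutrophil genes S100a9 (0.976), Lcn2 (0.968) and S100a8 (0.966), with the annexin gene Anxa1 (0.968), while Ly6c1 ranked 684 at r = 0.50. The closest to Ly6d were Ighm, the heavy chain gene of IgM (0.987), Dck, which encodes deoxycytidine kinase (0.985), Mir142hg (0.983) and Plekha2 (0.980). The closest to Ly6e were the cholesterol exporter gene Abcg1 (0.973), Gm28989 (0.954), the tetraspanin gene Tspan14 (0.947) and the importin gene Ipo11 (0.942).

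Of 16 other genes of the Ly6 cluster that were listed, 7 were in the table and all 7 passed the filter. Gpihbp1, which carries lipoprotein lipase across capillary endothelium, had the widest range, with a mean of 9.79 ± 0.44 log2 CPM for CD200-high, 10.30 ± 0.13 for type H, 8.68 ± 0.15 for arterial and 1.92 ± 0.72 for the sinusoidal-labelled libraries (SD, n = 3). Unlike Ly6a it had its highest mean in type H, but CD200-high minus type H did not pass (-0.51, 95% interval -1.20 to 0.17, adjusted p = 0.332). The constant of pan-endothelial scaling for this comparison, 0.95, is larger and of the other sign. Gpihbp1 was higher in CD200-high libraries than in arterial by 1.11 ± 0.31 (adjusted p = 0.0393), a call lost with equal totals (adjusted p = 0.0976), quantile normalization (adjusted p = 0.138) and pan-endothelial scaling (0.10, adjusted p = 0.754). It was higher in type H than in arterial by 1.62 ± 0.31 (adjusted p = 0.00373), which turned to -0.33 with pan-endothelial scaling (adjusted p = 0.236). Against the sinusoidal-labelled libraries it was higher by 7.87 ± 0.31 for CD200-high, 8.38 ± 0.31 for type H and 6.76 ± 0.31 for arterial (adjusted p = 2.88e-08, 1.40e-08 and 1.97e-07), and with pan-endothelial scaling still by 3.87, 3.44 and 3.77. Ly6g, the neutrophil antigen gene, was lower in CD200-high (-2.39 ± 0.47, adjusted p = 0.00662) and in type H (-2.59 ± 0.47, adjusted p = 0.00239) than in arterial. It was higher in arterial than in the sinusoidal-labelled libraries by 1.91 ± 0.47 (adjusted p = 0.0229), which turned to -1.08 with pan-endothelial scaling (adjusted p = 0.0715).

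Ly6i and Ly6k were low throughout. Ly6i averaged 5.73 CPM in CD200-high and 0.661 CPM in the sinusoidal-labelled libraries, higher in CD200-high by 2.85 ± 0.88 (adjusted p = 0.0308), a direction that turned to -1.14 with pan-endothelial scaling (adjusted p = 0.304). Ly6k had no reads in CD200-high or type H, where 3 reads per library would be 0.309 and 0.172 CPM on average. The mean of 3.43 CPM in the sinusoidal-labelled libraries was 11.1-fold the floor of CD200-high and 20.0-fold that of type H. Those libraries ran from 1.56 to 5.99 CPM, so these are ratios of means and not lower bounds. Limma called Ly6k lower than there in CD200-high and in type H (adjusted p = 0.0191 and 0.00916). Of the 7 cluster genes other than the members, limma called 0 between CD200-high and type H (0%, against 13% of all genes). There 1 had an unadjusted p under 0.05. In CD200-high 1 was higher and 1 lower against arterial (28.6%, against 12.9%). Against the sinusoidal-labelled libraries 2 were higher and 1 lower (42.9%, against 28.7%). In type H 1 was higher and 1 lower against arterial (28.6%, against 20.7%), and likewise against the sinusoidal-labelled libraries (28.6%, against 28.6%). Arterial had 2 higher and 0 lower against them (28.6%, against 10.2%). With pan-endothelial scaling CD200-high had 1 and 3 against them, where 13782 of 17086 genes were called (median over all genes -4.22).

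Of 18 listed genes with the same domain outside the cluster, 9 were in the table and 8 passed the filter. In CD200-high the numbers higher and lower were 1 and 1 against type H (25% called, against 13% of all genes), 1 and 2 against arterial (37.5%, against 12.9%) and 3 and 2 against the sinusoidal-labelled libraries (62.5%, against 28.7%). With pan-endothelial scaling they were 3 and 0, 1 and 4, and 0 and 7. In type H they were 0 and 2 against arterial (25%, against 20.7% of all genes) and 2 and 1 against the sinusoidal-labelled libraries (37.5%, against 28.6%), and in arterial 3 and 0 against them (37.5%, against 10.2%). With pan-endothelial scaling these were 0 and 6, 0 and 7, and 0 and 6. Of the 17086 genes tested, 3887, 5245, 13782, 11061, 15085 and 11350 were then called in either direction, in this order of comparisons. The medians over all genes were then 0.90, -1.22, -4.22, -2.15, -5.14 and -3.01. Cd59a, an inhibitor of complement, was higher in CD200-high libraries than in type H by 1.64 ± 0.23 (adjusted p = 0.000701), than in arterial by 2.06 ± 0.23 (adjusted p = 0.000386) and than in the sinusoidal-labelled libraries by 2.93 ± 0.23 (adjusted p = 4.91e-06), the last turning to -1.06 with pan-endothelial scaling. It was also higher than in the sinusoidal-labelled libraries by 1.29 ± 0.23 in type H (adjusted p = 0.00144) and by 0.87 ± 0.23 in arterial (adjusted p = 0.035), turning to -3.65 and -2.12, and the arterial call was lost with equal totals (adjusted p = 0.0794). Its paralogue Cd59b was higher in CD200-high libraries than in the sinusoidal-labelled ones by 2.32 ± 0.65 (adjusted p = 0.0205), turning to -1.68. Plaur, the urokinase receptor gene, was higher in arterial than in the sinusoidal-labelled libraries by 2.03 ± 0.33 (adjusted p = 0.00206), turning to -0.96 with that scaling. It was higher by 1.02 ± 0.33 in CD200-high (adjusted p = 0.0384) and by 1.31 ± 0.33 in type H (adjusted p = 0.011), turning to -2.98 and -3.63, and the CD200-high call was lost with equal totals (adjusted p = 0.124). Cd177, a neutrophil antigen gene, was lower in CD200-high (-2.08 ± 0.36, adjusted p = 0.00352) and in type H (-2.73 ± 0.36, adjusted p = 0.000344) than in arterial. Arterial was higher than the sinusoidal-labelled libraries by 2.11 ± 0.36 (adjusted p = 0.00293), turning to -0.88 with pan-endothelial scaling. Ly6g6c had no reads in CD200-high or type H, against means of 13.4 CPM in arterial and 22.2 CPM in the sinusoidal-labelled libraries. The arterial mean was 43.4-fold the floor of 3 reads per library in CD200-high and 78.2-fold that in type H. The mean of the sinusoidal-labelled libraries was 71.7-fold and 129-fold these floors. Arterial libraries stood at 6.61, 30.9 and 2.77 CPM, so these are ratios of means and not lower bounds. Limma called Ly6g6c lower in CD200-high and in type H than in arterial (adjusted p = 0.0018 and 0.000482). It was also called lower than in the sinusoidal-labelled libraries (adjusted p = 0.000198 and 9.00e-05). Ly6g6d averaged 0.930 CPM in CD200-high and 13.3 CPM in type H (difference -5.285 ± 1.40, adjusted p = 0.0282), a call lost with pan-endothelial scaling (adjusted p = 0.0515).

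Genes that build and attach the GPI anchor were called at shares above and below those of all genes. Of 25 listed, 24 were tested. In CD200-high the numbers higher and lower were 1 and 4 against type H (20.8% called, against 13% of all genes), 1 and 2 against arterial (12.5%, against 12.9%), and 1 and 1 against the sinusoidal-labelled libraries (8.33%, against 28.7%). In type H they were 3 and 1 against arterial (16.7%, against 20.7% of all genes) and 4 and 1 against the sinusoidal-labelled libraries (20.8%, against 28.6%), and in arterial 1 and 0 against them (4.17%, against 10.2%). With pan-endothelial scaling the numbers were 3 and 1, 0 and 7, and 0 and 24 for CD200-high, 0 and 12 and 0 and 24 for type H, and 0 and 20 for arterial, in the same order of comparisons. Of the 17086 genes tested, 3887, 5245, 13782, 11061, 15085 and 11350 were then called in either direction, in that order. The medians over all genes were then 0.90, -1.22, -4.22, -2.15, -5.14 and -3.01. Without that scaling the median difference over the list ran from -0.54 in CD200-high against type H to 0.42 in type H against arterial. There the medians over all genes were -0.05 and -0.20. Pigb, an anchor mannosyltransferase gene, was higher in CD200-high libraries than in type H by 1.28 ± 0.24 (adjusted p = 0.00383), than in arterial by 0.98 ± 0.24 (adjusted p = 0.019) and than in the sinusoidal-labelled libraries by 1.73 ± 0.24 (adjusted p = 0.00023), the last pair turning to -0.02 and -2.26 with pan-endothelial scaling. Pigm, another anchor mannosyltransferase gene, was lower in CD200-high libraries than in type H (-1.40 ± 0.28, adjusted p = 0.0059), a call lost with pan-endothelial scaling (-0.45, adjusted p = 0.286). It was higher in type H than in arterial by 1.68 ± 0.28 (adjusted p = 0.00139), which turned to -0.27 with pan-endothelial scaling. Against the sinusoidal-labelled libraries type H was higher by 1.37 ± 0.28 (adjusted p = 0.00291), turning to -3.56. Pgap2, an anchor remodelling gene, was higher in type H than in those libraries by 2.03 ± 0.57 (adjusted p = 0.0195), turning to -2.90, and Pigq was higher in type H than in arterial by 0.86 ± 0.17 (adjusted p = 0.00414), turning to -1.08.

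Pgap1 and Pigz had no reads in CD200-high. Their arterial means were 23.2-fold and 21.6-fold the CD200-high floor of 3 reads per library. Limma called both lower in CD200-high libraries than in arterial (adjusted p = 0.00871 and 0.0157). Pgap1 was also called lower than in the sinusoidal-labelled libraries (adjusted p = 0.027), whose mean was 7.96-fold that floor. Replicate 2 of those libraries held 0.162 CPM of Pgap1, under the mean floor of 0.309 CPM. These folds are ratios of means and not lower bounds. Pigz averaged 6.67 CPM in arterial and 0.0998 CPM in the sinusoidal-labelled libraries (difference 5.95 ± 1.53, adjusted p = 0.0288), a call lost with pan-endothelial scaling (adjusted p = 0.111).

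Interferon response genes, of which 19 of 20 listed were tested, separated the sinusoidal-labelled libraries from the rest. Against those libraries 9 were higher and 0 lower in CD200-high (47.4% called, against 28.7% of all genes), 7 higher and 2 lower in type H (47.4%, against 28.6%), and 7 higher and 0 lower in arterial (36.8%, against 10.2%). Between the other populations the shares called lay below those of all genes. In CD200-high against type H 1 was higher and 1 lower (10.5% called, against 13% of all genes). Limma called 0 in CD200-high against arterial (0%, against 12.9%, with 1 at an unadjusted p under 0.05). In type H against arterial 1 was higher and 2 lower (15.8%, against 20.7%). The summed list ranged from 1539 to 2312 CPM in CD200-high, from 2052 to 2630 CPM in type H, from 1660 to 2025 CPM in arterial, and from 727 to 880 CPM in the sinusoidal-labelled libraries. Ifitm3, an antiviral membrane protein gene, was higher than in the sinusoidal-labelled libraries by 1.80 ± 0.16 for CD200-high, 2.25 ± 0.16 for type H and 1.76 ± 0.16 for arterial (adjusted p = 1.37e-05, 1.77e-06 and 4.86e-05), turning to -2.19, -2.69 and -1.23 with pan-endothelial scaling. Bst2, which tethers viruses to the cell surface, was lower in CD200-high libraries than in type H (-0.93 ± 0.25, adjusted p = 0.0276), a call lost with quantile normalization (adjusted p = 0.0505) and turned to 0.01 with pan-endothelial scaling. Type H was higher than arterial by 1.08 ± 0.25 (adjusted p = 0.00946), turning to -0.87. Against the sinusoidal-labelled libraries it was higher by 2.74 ± 0.25 in type H and by 1.66 ± 0.25 in arterial (adjusted p = 8.20e-06 and 0.00113), turning to -2.20 and -1.33. Rsad2, which encodes the antiviral enzyme viperin, was higher in CD200-high libraries than in the sinusoidal-labelled ones by 3.99 ± 0.53 (adjusted p = 0.000195), and at -0.00091 under that scaling. Ifit2 was higher in CD200-high libraries than in type H by 1.69 ± 0.37 (adjusted p = 0.0114), and Oas1a, at means of 1.45 CPM in type H and 26.7 CPM in arterial, was lower in type H (-5.71 ± 1.36, adjusted p = 0.0117). With pan-endothelial scaling no listed gene was higher than in the sinusoidal-labelled libraries, and 16, 19 and 13 were lower for CD200-high, type H and arterial. Of the 17086 genes tested, 13782, 15085 and 11350 were then called in either direction, in the same order. The medians over all genes were -4.22, -5.14 and -3.01, so the listed genes moved to the same side as most genes.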

How the data were processed

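Values were deposited by the authors as log2 CPM (0.5 read was added before the log, and totals are effective library sizes), in 1 column per library. Undoing the log gave whole reads within 0.01 for 100% of values, and reads and CPM here were recovered so. How the authors scaled libraries is not stated. Per the submitters' processing notes, Trimmomatic, STAR, SAMtools, deepTools, featureCounts and R 4.3 were used. They name a human genome build although the symbols are mouse, so no coordinates of the files are used. The strand counted is not given in the sources used here.

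Limma 3.58.1 in R 4.3.3 was fitted with a mean-variance trend on the log2 values of all 12 libraries, without a block, for 6 comparisons, and p-values were adjusted (Benjamini-Hochberg) over 17086 genes that reached 0.630 CPM, or 10 reads at the mean effective size (15.9 M), in 3 or more libraries. The fit was checked on simulated reads. Fold changes understate those of low genes, since 0.5 read is added. The members and lists were chosen with earlier results of these data known. The text names the 5 members throughout, up to 4 called relatives and 2 genes of each further list per comparison by smallest adjusted p, and the 4 genes most like each member. Per the labels, mouse numbers recur across populations, and a fit with the number as a block was run. Deviations of same-numbered libraries from their population means correlated at -0.04 to 0.11 over 18 pairs and 9846 genes (median 0.03). Limma intervals rest on a spread pooled over all 12 libraries, so a gene had the same SE in all 6 comparisons. SDs cover the spread between 3 libraries and floors the counting error, and reads are not tied to molecules. Alternatives left out each library, changed the filter, pseudocount, scaling, trend or weights, or fitted 2 populations.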

Additional observations from a re-analysis of the deposited data

How the results depend on the processing

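Of 717 repeats of single-member differences, 663 kept their direction and side of the threshold, 20 newly passed, 17 no longer passed and 17 changed sign. Members called without each library in turn numbered 2 to 3 in CD200-high against type H, 2 in CD200-high against arterial, 3 to 4 in CD200-high against the sinusoidal-labelled libraries, 4 to 5 in type H against arterial, 3 to 4 in type H against the sinusoidal-labelled libraries and 4 to 5 in arterial against them. Without the mean-variance trend 1 member was called in CD200-high against type H. Scaling to the pan-endothelial median called 5 members in CD200-high against the sinusoidal-labelled libraries.

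That scaling adds one constant to all differences of a comparison: 0.95, -1.001, -3.99, -1.95, -4.94 and -2.99 for CD200-high against type H, arterial and sinusoidal-labelled, type H against arterial and sinusoidal-labelled, and arterial against sinusoidal-labelled. By construction it turned Ly6e to 0.14 in CD200-high against type H, and in CD200-high against arterial it turned Ly6a to -0.59, Ly6c1 to -0.33 and Ly6e to -0.90. Against the sinusoidal-labelled libraries it turned Ly6c2 to -3.40 in CD200-high, Ly6a to -0.0702 and Ly6e to -4.46 in type H, and Ly6c2 to -0.88 in arterial. It turned Ly6e to -1.05 in type H against arterial.

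Ly6e in CD200-high against arterial was -0.0922 after rescaling to equal totals and -0.0298 after quantile normalization, and -0.0887 to 0.223 without single libraries. Ly6c2 in type H against the sinusoidal-labelled libraries was -0.26 to 0.24 without single libraries. The reads of Ly6c1 and Ly6c2 summed, in place of Ly6c2, gave 0.0013 in CD200-high against arterial and 1.61 in type H against the sinusoidal-labelled libraries. The cause of the other changes was not tested.

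With the mouse number as a replicate block, 3 members were called in type H against the sinusoidal-labelled libraries, Ly6e being lost (adjusted p = 0.0552), and the block changed no other call of a member. Depth did not limit the members, whose lowest count was 228 reads for Ly6a in a sinusoidal-labelled library.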
